A study of Mus musculus with 416 samples.

Results

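The genes described here encode the subunits of the mouse proteasome and the proteins that assemble, activate or inhibit it, measured in the striatum of Diversity Outbred mice. They were taken by a rule on names, which was set with earlier results of these data known. The rule took protein-coding genes whose symbol begins with Psma, Psmb, Psmc, Psmd, Psme, Psmf or Psmg followed by a number. Of the 46517 gene IDs in the deposited table, 50 met that rule. By role the 50 were sorted into 14 constitutive core subunits, 3 immune core subunits, 2 tissue-restricted core subunits, 9 base subunits, 8 lid subunits, 7 assembly chaperones, 4 activators, 1 inhibitor and 2 other matches, Psmc3ip and Psme2b. These 2 were set apart because letters follow the number in their symbols. Psmc3ip is no subunit, while Psme2b shares most of its sequence with the activator gene Psme2, as given below. The symbol pattern was also met by 4 pseudogenes, which were not taken. All 50 passed the filter on low counts, which left 22968 genes to be tested.

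The study profiled total RNA from the striatum of 416 J:DO mice that had received no drug. J:DO is an outbred stock kept by random mating, so each mouse carries its own mixture of founder genomes and no 2 libraries are replicates of 1 genotype. By the labels, every library has its own animal number and is placed by sex and by the generation of breeding, and every group had the same strain, tissue and drug-naïve state. No age was given. The libraries labelled female numbered 76 in generation 21, 60 in generation 22 and 72 in generation 23, and those labelled male numbered 74, 59 and 75. Total estimated counts ran from 20331813 to 77458299 per library, with a median of 43516366.5. In 29 libraries the level of Xist went against the labelled sex, and another criterion marked 29 libraries, here called the weak libraries, for a small total count or a small correlation with the rest (14, 6 and 9 in generations 21, 22 and 23). The defining markers of spiny projection neurons were abundant in most libraries (Ppp1r1b at a median of 1032 CPM, the count scaled to the library total, and Drd1 at 310 CPM), although the lowest library had 1.53 CPM of Drd1. Any cohort, housing or sequencing batch that followed the breeding generation cannot be told apart from generation.

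The proteasome is the large protease that degrades ubiquitin-tagged proteins in the cytosol and nucleus. Its barrel-shaped 20S core is made of rings of alpha subunits (Psma genes) around rings of beta subunits (Psmb genes), and the catalytic sites sit on Psmb5, Psmb6 and Psmb7. A regulatory particle caps the core: its base holds the ATPases Psmc1 to Psmc6, which unfold the substrate, and its lid holds Psmd14, which removes the ubiquitin chain. Under interferon, Psmb8, Psmb9 and Psmb10 replace Psmb5, Psmb6 and Psmb7 in newly built cores, which then cut peptides suited to presentation on MHC class I. In the healthy brain the constitutive form predominates, and neurons depend on it for synaptic protein turnover.

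The constitutive particle was abundant, and the immune subunits were scarce. Levels between genes are compared as CPM per kb of annotated exons, as means over 416 libraries. The highest were the ATPase Psmc5 with 43.7 ± 4.65 CPM per kb (SD), the ATPase Psmc1 with 36.5 ± 2.61 CPM per kb and Psmd2, a large scaffold of the base, with 35.2 ± 2.14 CPM per kb. At the other end stood Psma8, an alpha subunit known from male germ cells, with 0.069 CPM per kb, followed by the immune Psmb9 with 0.126 CPM per kb and by Psmb11, the catalytic subunit known from thymic epithelium, with 0.17 CPM per kb. The same 3 genes led when the length of the longest transcript was used, in the order Psmd2, Psmc1 and Psmc5. In summed CPM per library, which is not per length, the 14 constitutive core genes together made 459 to 676 CPM (median 555), the 9 base genes 534 to 822 CPM (median 626), the 8 lid genes 312.8 to 437 CPM (median 364.6) and the 7 assembly chaperones 63.7 to 92.3 CPM (median 74.6). The 3 immune core genes made 2.56 to 12.5 CPM (median 5.03). In bulk tissue, fewer cells of a type and less RNA per cell cannot be told apart.

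**Figure D1:**
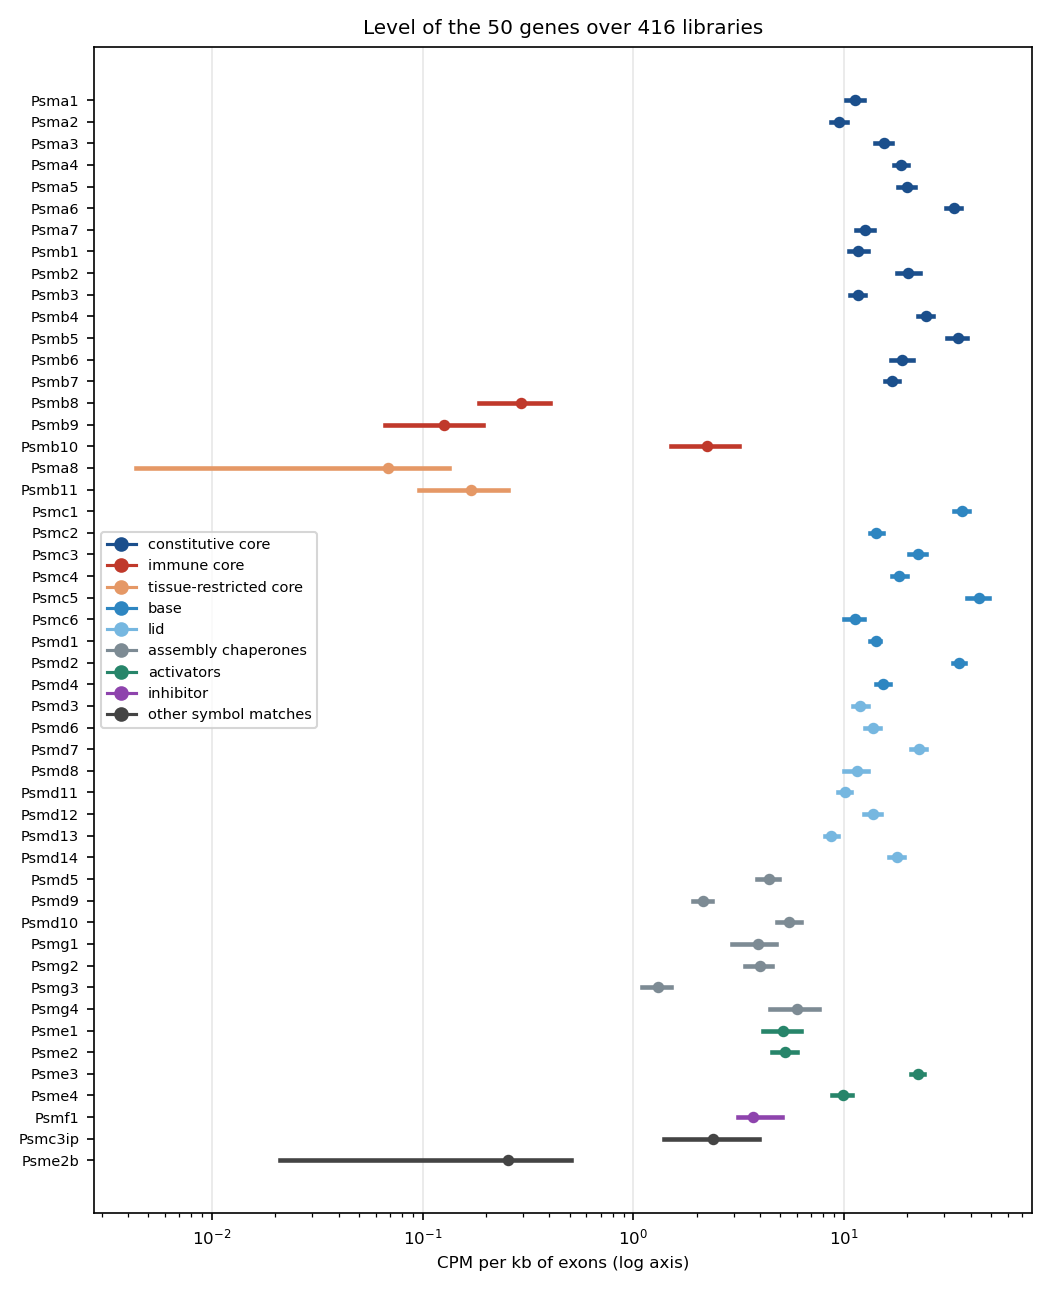
Level of each of the 50 genes in CPM per kb of exons on a log axis; points are means over 416 libraries, lines run from the 10th to the 90th percentile of libraries and colours give the class. The constitutive core, base and lid genes sit close together and far to the right of the immune and tissue-restricted core genes.

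Among the immune subunits, Psmb10 was the most abundant. Psmb10 had 3.84 ± 1.30 CPM over all libraries (SD, n = 416), from 1.57 to 10.7 CPM. Psmb8 had 0.995 ± 0.320 CPM, from 0.344 to 2.49 CPM, and Psmb9 had 0.462 ± 0.190 CPM, from 0.0951 to 1.36 CPM. The levels of Psmb8 and Psmb9 rest on few reads: the median library had 42 estimated counts of Psmb8 and 19 of Psmb9. Set per kb against the catalytic subunit that each replaces, Psmb10 reached a median of 12.4% of Psmb7 (5.49% to 27.8% over libraries), Psmb8 a median of 0.817% of Psmb5 (0.294% to 2.32%) and Psmb9 a median of 0.662% of Psmb6 (0.138% to 2.02%). With the longest transcript as length the medians were 13.4%, 1.45% and 0.433% for Psmb10, Psmb8 and Psmb9, so the order of Psmb8 and Psmb9 held while their shares moved by over 1.5 times. No library had an immune subunit above its constitutive counterpart. Reads of Psmb9 may be split with Tap1, a peptide transporter gene that overlaps it on the other strand, since the counting method is not given in the sources used here.

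The promoters of the 3 immune subunits are shown because their genes did not move together, and those of Psmd2 and Psmd4 because these base genes belong to the most strongly correlated pairs given further on. The sequences are from RefSeq on build GRCm38.p6, each 250 bases before to 50 bases after the annotated start, 5′ to 3′ on the gene's strand. Of the 50 genes, 42 had an entry. Capitals mark matches, on either strand, to an interferon-stimulated response element (ISRE: GAAA, any 2 bases, GAAA), a gamma-activated site (GAS, TTCNNNGAA), an antioxidant response element (ARE, TGACNNNGC) or a CCAAT box (CCAAT).
Psmb8, chr17:34197945-34198244, plus strand: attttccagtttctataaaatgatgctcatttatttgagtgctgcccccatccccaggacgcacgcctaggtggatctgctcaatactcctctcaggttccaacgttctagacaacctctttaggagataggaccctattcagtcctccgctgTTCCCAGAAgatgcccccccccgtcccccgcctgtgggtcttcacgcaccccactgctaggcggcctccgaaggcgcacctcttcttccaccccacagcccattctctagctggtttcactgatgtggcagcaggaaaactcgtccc
Psmb9, chr17:34187281-34187580, minus strand: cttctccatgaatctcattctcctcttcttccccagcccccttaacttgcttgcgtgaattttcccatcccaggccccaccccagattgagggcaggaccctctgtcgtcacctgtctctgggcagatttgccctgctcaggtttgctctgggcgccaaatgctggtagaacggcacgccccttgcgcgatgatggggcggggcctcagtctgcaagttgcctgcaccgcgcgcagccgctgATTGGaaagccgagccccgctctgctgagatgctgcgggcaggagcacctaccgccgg
Psmb10, chr8:105938343-105938642, minus strand: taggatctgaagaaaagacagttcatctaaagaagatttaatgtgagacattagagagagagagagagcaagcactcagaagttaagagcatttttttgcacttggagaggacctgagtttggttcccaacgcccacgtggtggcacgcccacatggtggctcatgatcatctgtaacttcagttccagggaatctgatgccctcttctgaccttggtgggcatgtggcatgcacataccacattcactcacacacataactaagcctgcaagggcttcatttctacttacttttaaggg
Psmd2, chr16:20651402-20651701, plus strand: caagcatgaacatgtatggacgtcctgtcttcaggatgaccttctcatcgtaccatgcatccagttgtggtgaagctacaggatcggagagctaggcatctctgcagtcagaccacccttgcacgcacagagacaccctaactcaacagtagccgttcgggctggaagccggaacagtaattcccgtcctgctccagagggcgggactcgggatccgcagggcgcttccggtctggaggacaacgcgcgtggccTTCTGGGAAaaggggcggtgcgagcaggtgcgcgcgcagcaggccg
Psmd4, chr3:95042565-95042864, minus strand: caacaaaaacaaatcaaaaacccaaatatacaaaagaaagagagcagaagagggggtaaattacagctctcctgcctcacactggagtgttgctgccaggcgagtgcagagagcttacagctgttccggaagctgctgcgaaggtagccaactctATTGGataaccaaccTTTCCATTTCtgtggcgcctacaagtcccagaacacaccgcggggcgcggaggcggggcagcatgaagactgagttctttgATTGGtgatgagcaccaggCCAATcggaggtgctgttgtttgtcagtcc
In these windows Psmb8 held 1 GAS match, Psmb9 held 1 CCAAT box, Psmd2 held 1 GAS match at its start, and Psmd4 held 1 ISRE match and 3 CCAAT boxes. The Psmb10 window held none of these letters. Over the 42 promoters, ISRE matches were found in 5, GAS matches in 3, ARE matches in 6 and CCAAT boxes in 15. The same letters were in 3.49%, 8.47%, 12.5% and 37.9% of the 27025 promoters of the same length in the RefSeq table. A match is a description of the letters and not a binding site.

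Psma8 and Psme2b sat near the detection limit. Psma8 had 0 to 1.73 CPM and was at 0 in 42 libraries, and Psme2b was also at 0 in 42 libraries. A count of 0 allows up to 3 counts, which is 0.0689 CPM at the median total, counting error only. Of the 25-base stretches in the transcripts of Psme2b, 79.5% also occur in Psme2, so the level of Psme2b is uncertain, and likewise 35.4% of the stretches of Psme2 occur in Psme2b. Processed pseudogenes share stretches with several abundant members: 76.7% of the stretches of Psmb5 occur in transcripts of other genes, 61.8% of those of Psma5, 39.3% of those of Psmc1 and 37.5% of those of Psmd2. The levels of these genes depend on how the authors' counting assigned shared reads.

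The subunits of the constitutive particle varied little between mice. Spread is given as the SD of log2 CPM over 416 libraries after the means of sex and generation were removed. Its median was 0.0997 for the 31 constitutive core, base and lid genes, against 0.14 for the 5361 genes tested in the same range of mean level, and 29 of the 31 lay under that value. The smallest SDs were those of Psmd1, the other large base scaffold, with 0.06, the ATPase Psmc2 with 0.07, Psmd2 with 0.08 and the lid gene Psmd14 with 0.08. Over all 50 genes the median SD was 0.11, and over all genes tested it was 0.29.

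The largest spread was found outside the constitutive particle. The SD was 1.03 for Psme2b and 0.95 for Psma8, both near the detection limit. It was 0.60 for Psmc3ip, a partner of meiotic recombinases, 0.54 for Psmb9, 0.50 for Psmb11, 0.43 for Psmb8, 0.42 for Psmb10 and 0.29 for the assembly chaperone Psmg1. Psmb9, Psmb8 and Psmb11 rested on medians of 19, 42 and 33 counts, so counting error takes a part of their spread that was not tested. Psmc3ip rested on a median of 156.5 counts. Sex and generation together took 39% of the variance of the activator Psme4 and 28.5% of that of Psmb6, the catalytic beta subunit with caspase-like activity.

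The inhibitor Psmf1, which binds the ends of the core, fell into 2 levels. In 71 libraries (17.1%) Psmf1 lay between 29.3 and 43 CPM, and in all the others between 18.4 and 27 CPM, with no library between. The 71 were 19, 19 and 33 libraries of generations 21, 22 and 23, and 32 labelled female and 39 labelled male. The gap was 0.458 SD wide, against a median widest gap of 0.0883 SD over the genes tested, and 719 genes tested (3.13%) had a gap at least as wide. The gap was noticed in the data and is a description with no test. Gm14153 is a processed pseudogene in the GENCODE annotation and a close neighbour of Psmf1, 0.053 Mb away on chromosome 2. It had 0.412 to 2.17 CPM in 71 libraries and at most 0.06 CPM in the others. The 71 libraries high in Psmf1 and the 71 libraries high in Gm14153 were the same, in 71 of 71. Transcripts of Gm14153 share no 25-base stretch with those of Psmf1 (0 stretches). Within the lower and the upper level the correlation of Psmf1 with Gm14153 was 0.06 and 0.22.

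**Figure D2:**
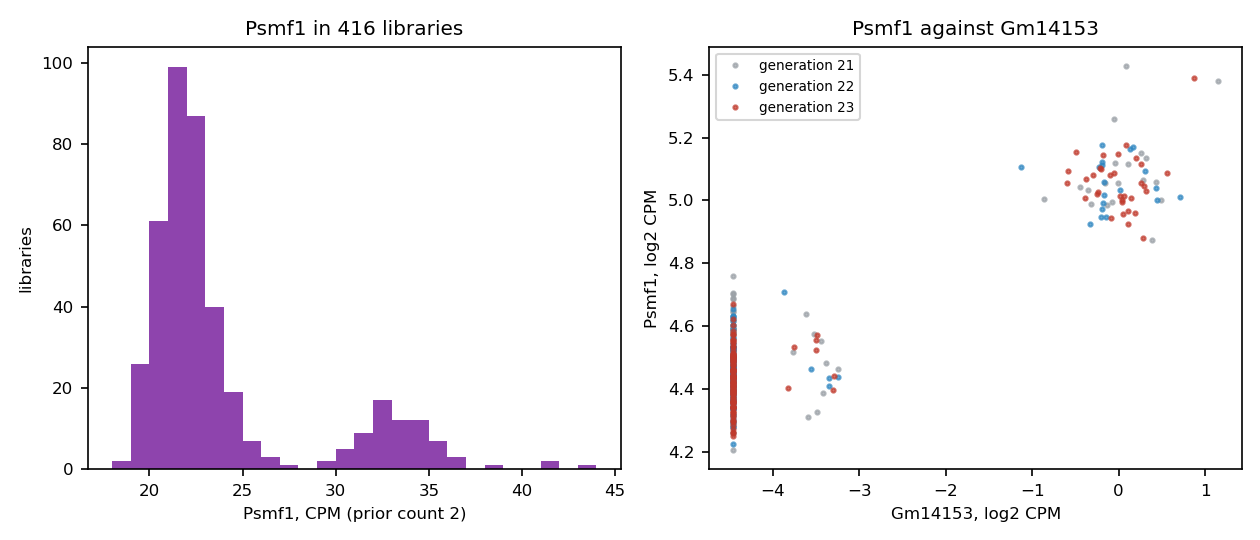
Left, number of libraries by the level of Psmf1 in CPM, with bars 1 CPM wide; right, log2 CPM of Psmf1 against log2 CPM of the pseudogene Gm14153, with 1 point per library coloured by generation. The 71 libraries at 29.3 CPM or more of Psmf1 are also those high in Gm14153, in all 3 generations.

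Between the sexes, 4 lid and base subunits were slightly higher in females, each by a log2 difference of 0.03. They were the lid genes Psmd7, Psmd14 and Psmd6 and the base gene Psmd2. These 4 of 50 genes (8% of the members) were called at an adjusted p under 0.05 by edgeR's quasi-likelihood test, beside 2.86% of all genes tested (1.55% higher in females), and 0 were lower. At an unadjusted p under 0.05 there were 18 of 50 members, beside 3952 of the 22968 genes tested. The median log2 difference was 0.02 over the 50 genes and 0.00 over all genes tested.

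Psmd7, a structural lid subunit paired with Psmd14, had 37.5, 52.1 and 61.7 CPM (lowest, median and highest) in libraries labelled female, against 40.2, 50.7 and 59.4 CPM in those labelled male. The ranges overlapped almost whole, and the log2 difference was 0.03 (SE 0.01, adjusted p = 0.023, edgeR). Psmd14, the deubiquitinase of the lid, had 40.7, 51.1 and 59.2 CPM in females, against 41.3, 50.1 and 59.7 CPM in males (log2 difference 0.03, SE 0.01, adjusted p = 0.0298, edgeR). Psmd6 had 32.6, 39 and 46.5 CPM in females, against 31, 38 and 43.9 CPM in males (log2 difference 0.03, SE 0.01, adjusted p = 0.0355, edgeR). Psmd2 had 128.2, 142.6 and 198.8 CPM in females, against 116.04, 139.6 and 177.2 CPM in males (log2 difference 0.03, SE 0.01, adjusted p = 0.0422, edgeR). For each of the 4 genes the difference was well under the SD between libraries of 1 sex, and all 4 were higher in females in each of the 3 generations fitted alone, where 0 members were called. With the 29 weak libraries left out, 9 members were called, all higher in females, and with marker scores as covariates 1 was. The immune core genes were not called: Psmb8 had a median of 0.986 CPM in females and 0.921 CPM in males, Psmb9 0.462 and 0.428 CPM in females and males, and Psmb10 3.59 and 3.48 CPM. By the interaction test, which asks whether the difference between the sexes differs between generations, edgeR called 0 of 50 members, beside 0.322% of genes tested. At an unadjusted p under 0.05 there were 2 of 50 members, beside 1798 of the 22968 genes tested. DESeq2 and limma voom also called 0 members.

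Between generations, the beta ring of the core and most of the activators were lower in generations 22 and 23 than in generation 21, while the ATPases Psmc2 and Psmc6 and the activator Psme4 were higher. The shifts were small. Generation 23 against 21 called 37 of 50 members, 11 higher and 26 lower (74% of the members, beside 58.3% of genes tested, 25.8% higher and 32.6% lower). Generation 22 against 21 also called 37, 9 higher and 28 lower (beside 46.6% of genes tested, 22.1% higher and 24.6% lower). Generation 23 against 22 called 5, all higher (10% of the members, beside 18.2% of genes tested, 8.53% higher and 9.63% lower). In that comparison 12 of 50 members had an unadjusted p under 0.05, beside 7106 of the 22968 genes tested. Any difference among the 3 generations was called for 40 members, beside 63.8% of genes tested. A large share of all genes was called, and the first 2 counts stand above that background, while that of generation 23 against 22 stands below it. The excess in the first 2 lay among lower members, with 26 and 28 of 50 beside 32.6% and 24.6% of genes tested. The higher members, 11 and 9 of 50, were not above the background of 25.8% and 22.1%. This background was not matched for level or spread. The median SD of log2 CPM was 0.11 over the members and 0.29 over all genes tested. Whether the larger share of members called follows from their smaller spread was not tested. The 3 pairs of generations share libraries, so their values are not independent of each other. Among called members the median size of the log2 difference of generation 23 against 21 was 0.07, against 0.13 among all genes called.

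The constitutive core split by ring. All 7 constitutive beta genes were lower in generation 23 than in 21 and lower in 22 than in 21, with log2 differences between -0.16 and -0.05 for generation 23 against 21 (median -0.08). Of the 7 alpha genes, 2 were higher, 3 were lower and 2 did not pass the test in each of these comparisons. Against generation 22, generation 23 called 0 of the 14 constitutive core genes by edgeR. At an unadjusted p under 0.05 there was 1, beside 7106 of the 22968 genes tested. Summed over the 14 genes, the median per library was 564, 554 and 550 CPM in generations 21, 22 and 23.

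Psmb6 moved the most among the beta genes. It had 30.1, 37.4 and 53.3 CPM (lowest, median and highest) in generation 21, 28.1, 34.1 and 40.9 CPM in generation 22, and 27.9, 33.7 and 39.9 CPM in generation 23. The ranges overlapped, with the highest libraries in generation 21. The log2 difference was -0.16 for generation 23 against 21 (SE 0.01, adjusted p = 2.97e-27, edgeR) and -0.14 for 22 against 21 (SE 0.01, adjusted p = 4.56e-18). In libraries labelled female alone Psmb6 differed by -0.15 between generations 23 and 21, and in those labelled male alone by -0.17. Psmb5, with chymotrypsin-like activity, had medians of 32.2, 30.9 and 30.5 CPM in generations 21, 22 and 23 (log2 difference -0.08 for 23 against 21, SE 0.02). Psmb7, with trypsin-like activity, had medians of 58.7, 57.2 and 57.8 CPM (log2 difference -0.05, SE 0.01). Psmb3 and Psmb2, which carry no catalytic site, differed by -0.09 and -0.11 in the same comparison.

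In the regulatory particle the direction was mixed. Generation 23 against 21 called 8 of 9 base genes, 3 higher and 5 lower, and 7 of 8 lid genes, 4 higher and 3 lower. Psmc6, an ATPase, had 26.4, 37.7 and 46.7 CPM in generation 21, 29, 39.4 and 46.7 CPM in generation 22, and 28.2, 41.1 and 50.3 CPM in generation 23. Its log2 difference was 0.13 for generation 23 against 21 (SE 0.01, adjusted p = 4.80e-17, edgeR), 0.07 for 22 against 21 and 0.06 for 23 against 22. Psmc2 was higher by 0.07 in generation 23 than in 21, Psmd14 by 0.06 and the alpha subunit Psma3 by 0.08. Psmd8, a lid gene, had medians of 36.6, 33.6 and 34.6 CPM and was lower in generation 22 than in 21, with a log2 difference of -0.13 (SE 0.02, adjusted p = 1.58e-10, edgeR). Psmd3, Psmd4 and Psmc4 differed by -0.07, -0.08 and -0.08 between generations 22 and 21. Apart from Psmb10, the members higher in generation 23 than in 22 were Psmc1, Psmc4, Psmc6 and Psmd12, by 0.03 to 0.06. None of these calls held with marker scores as covariates, where the 4 differences were 0.02 to 0.03 (adjusted p = 0.20 to 0.45, edgeR), and libraries labelled female alone called 1 member and those labelled male alone 0. For several members generation 21 held the highest libraries: of the 24 libraries at 29.9 CPM or more of Psmb3, 23 were of generation 21, and of the 33 libraries at 154.9 CPM or more of Psmd2, 29 were.

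The activators did not move as 1 group. Psme1 and Psme2 form the interferon-inducible 11S cap, Psme3 forms the nuclear 11S cap and Psme4 encodes PA200, a large nuclear cap. Psme4 had 49.8, 76.8 and 91.8 CPM in generation 21, 74, 85.1 and 98.2 CPM in generation 22, and 74.6, 86.7 and 105.9 CPM in generation 23. Its lowest libraries were all of generation 21: of the 21 libraries at 68.9 CPM or less, the later generations held 0. The log2 difference was 0.19 for generation 23 against 21 (SE 0.01, adjusted p = 4.79e-39, edgeR) and 0.16 for 22 against 21 (SE 0.01, adjusted p = 1.23e-25). Psme1 had 7.03, 12 and 25.9 CPM in generation 21, 6.44, 11 and 16.7 CPM in generation 22, and 6.75, 10.7 and 14.9 CPM in generation 23, with a log2 difference of -0.21 for 23 against 21 (SE 0.03, adjusted p = 3.53e-12, edgeR). Psme2 had medians of 9.70, 9.04 and 9.02 CPM, a fold of 0.917 in generation 23 against 21, and Psme3 had medians of 66.7, 65.2 and 66 CPM, a fold of 0.975. Both passed the test (adjusted p = 1.76e-10 and 0.00109, edgeR). Psmf1 did not: its medians were 22.4, 22.1 and 22 CPM and its log2 difference was 0.03.

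Of the assembly chaperones, 3 of 7 were lower in generation 23 than in 21 and 0 were higher, a share of 42.9% called beside 58.3% of genes tested. Psmg4, which pairs with Psmg3 in building the alpha ring, had 2.24, 3.53 and 5.70 CPM in generation 21, 2.10, 3.16 and 4.59 CPM in generation 22, and 1.70, 3.15 and 4.92 CPM in generation 23. Its log2 difference was -0.22 for generation 23 against 21 (SE 0.03, adjusted p = 2.39e-10, edgeR) and -0.19 for 22 against 21. The thymic Psmb11, with medians of 0.665, 0.752 and 0.873 CPM, was higher by 0.34 in generation 23 than in 21 (SE 0.06, adjusted p = 1.04e-07, edgeR) and by 0.19 in 22 than in 21. Psma8 had medians of 0.158, 0.169 and 0.153 CPM and was not called.

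**Figure D3:**
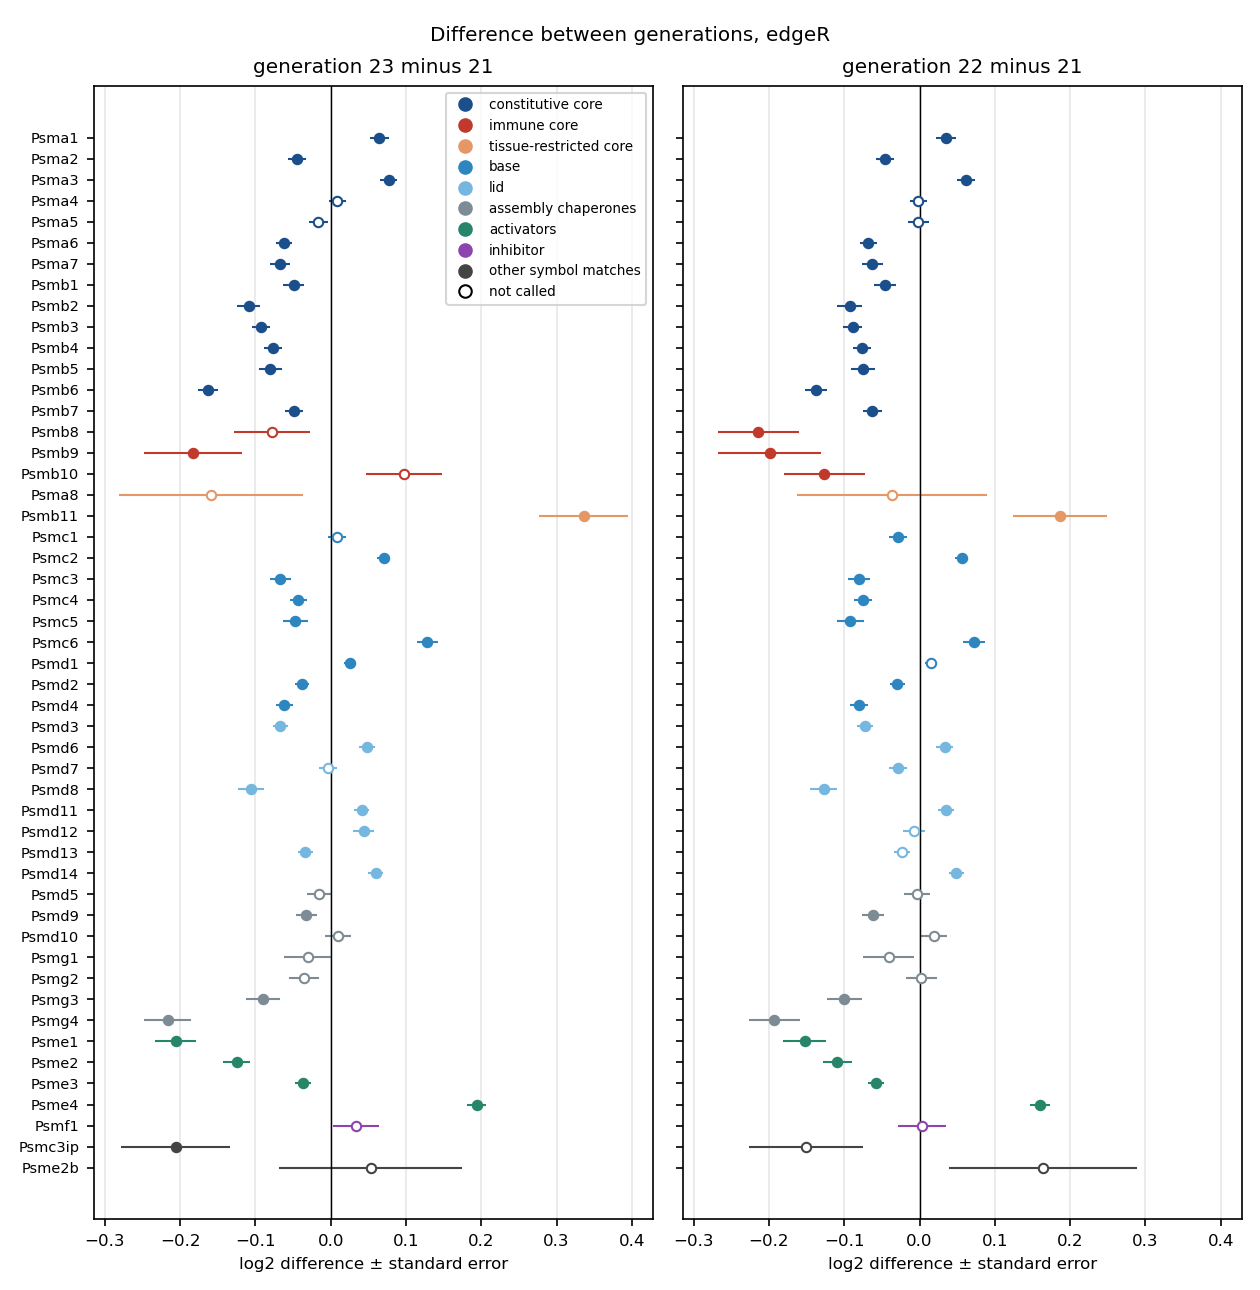
Log2 difference of generation 23 minus 21 (left) and 22 minus 21 (right) for each of the 50 genes, with standard errors; filled points were called by edgeR at an adjusted p under 0.05 and open points were not. The 7 constitutive beta genes lie left of 0 in both panels, which share the generation 21 libraries, and Psme4 lies right of 0 with a difference of 0.19 and 0.16.

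The immune core genes differed between generations in a different order from each other. Psmb8 had 0.427, 1.04 and 2.03 CPM (lowest, median and highest) in generation 21, 0.421, 0.885 and 1.89 CPM in generation 22, and 0.344, 0.945 and 2.49 CPM in generation 23. The ranges overlapped almost whole. Psmb8 was lower in generation 22 than in 21, with a log2 difference of -0.21 (SE 0.05, adjusted p = 0.000352, edgeR), and its differences of -0.08 for 23 against 21 and 0.14 for 23 against 22 did not pass the test (adjusted p = 0.178 and 0.0669). The last of these passed under 3 alternatives, with an adjusted p of 0.0392 with marker scores as covariates. Psmb9 had medians of 0.486, 0.421 and 0.42 CPM in generations 21, 22 and 23, and was lower in both later generations, with log2 differences of -0.20 for 22 against 21 (SE 0.07, adjusted p = 0.0107, edgeR) and -0.18 for 23 against 21 (SE 0.07, adjusted p = 0.0106, edgeR). With marker scores as covariates the difference for 23 against 21 was -0.14, with an adjusted p of 0.0955.

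Psmb10 had 1.97, 3.49 and 10.7 CPM in generation 21, 1.82, 3.27 and 7.91 CPM in generation 22, and 1.57, 3.91 and 8.89 CPM in generation 23. Psmb10 was higher in generation 23 than in 22 by a log2 difference of 0.22 (SE 0.05, adjusted p = 0.00127, edgeR) and lower in 22 than in 21, with a log2 difference of -0.13 (SE 0.05, adjusted p = 0.0432, edgeR). Its share of Psmb7 per kb had medians of 12.2%, 11.4% and 13.9% in generations 21, 22 and 23. Markers of a neighbouring tissue also differed between generations. Cortical excitatory neurons are known by genes such as Slc17a7 and Tbr1. Of 10 such markers generation 23 had 9 higher than generation 21 and 8 higher than generation 22, beside 25.8% and 8.53% of genes tested. In generation 22 against 21, where Psmb10 was lower, 5 of the 10 were higher and 0 lower, beside 22.1% and 24.6% of genes tested. Their summed level was 44.4, 82.1 and 843 CPM (lowest, median and highest) in generation 21, 51.7, 97.5 and 1120 CPM in generation 22, and 54.6, 225.3 and 877 CPM in generation 23. The difference of Psmb10 for generation 23 against 21 was 0.10 and did not pass the test (adjusted p = 0.088, edgeR). With marker scores as covariates it became -0.15 for generation 23 against 21 (adjusted p = 3.2e-05, edgeR) and near 0, at -0.0066, for 23 against 22 (adjusted p = 0.93). The difference for 22 against 21 was -0.15 with those scores (adjusted p = 5.76e-05), and -0.05 without the weak libraries (adjusted p = 0.39).

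The 3 libraries highest in Psmb10 were all of generation 21, with 10.7, 9.92 and 9.06 CPM. Their 8 thalamic markers summed to 4325, 2971 and 2311 CPM, against a median of 170 CPM in generation 21, and their 10 spiny neuron markers to 327.3, 3735 and 1423 CPM, against a median of 8066 CPM. The next 3 libraries, with 8.89, 8.15 and 8.07 CPM of Psmb10, had 877, 727 and 877 CPM of cortical markers and 229.5, 180.6 and 211.3 CPM of thalamic markers. The 6 libraries were picked for their Psmb10 level, and these are descriptions with no test.

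Other marker lists moved with generation beside these results. Between generations 23 and 21, 7 of 8 thalamic markers, 7 of 8 ependymal markers, 8 of 10 microglial markers, 6 of 10 spiny neuron markers and 5 of 6 red blood cell markers were lower. Of all genes tested, 25.8% were higher and 32.6% lower in this comparison. The summed thalamic level had medians of 170, 175.8 and 179.8 CPM in generations 21, 22 and 23, with a mean of 237.3 CPM in generation 21, which held the libraries at 4325, 2971 and 2311 CPM. Astrocyte markers had 1 higher and 4 lower of 8, oligodendrocyte markers 1 higher and 5 lower of 8, endothelial markers 2 higher and 2 lower of 8, and choroid plexus markers 0 higher and 1 lower of 8. Between the sexes 2 of 10 microglial markers were higher in females, beside 1.55% of genes tested. A fit with the marker scores as covariates called 35 members for generation 23 against 21, of which 33 were among the 37. Under those covariates the differences of Psmb6 and Psme4 between generations 23 and 21 were -0.14 and 0.16. A relation with transcript length ran in the same comparison: Spearman's rho of the log2 difference with transcript length was 0.31 over the 50 members and 0.27 over 16055 protein-coding genes, a description across genes, which are no independent replicates.

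Genes that work with the proteasome moved in both directions. Of 31 such genes, 30 were measured. In generation 23 against 21, 12 were higher and 10 lower, beside 25.8% and 32.6% of genes tested. In generation 22 against 21, 7 were higher and 12 lower, beside 22.1% and 24.6% of genes tested. In 23 against 22, 7 were higher and 2 lower, beside 8.53% and 9.63%. The median log2 difference over the 30 was -0.01 for generation 23 against 21, against -0.02 over all genes tested. In that comparison the chaperone Bag6 had a log2 difference of -0.14, while the ubiquitin ligase Ube3a differed by 0.15, the proteasome-bound deubiquitinase Usp14 by 0.11 and the activator Zfand5 by 0.11. Between the sexes 2 were higher in females, the shuttle Ubqln1 and the ubiquitin receptor Adrm1, and 0 lower, beside 1.55% of genes tested higher. Of 12 antigen-processing genes, 1 was higher and 7 lower in generation 22 than in 21, beside 22.1% and 24.6% of genes tested. Among the 7 were the MHC class I gene H2-K1 with a log2 difference of -0.39, the transporter Tap1 with -0.23 and its partner Tapbp with -0.09. In generation 23 against 21, 1 was higher and 4 lower, beside 25.8% and 32.6% of genes tested. In 23 against 22, 4 were higher and 0 lower, beside 8.53% and 9.63%. The chaperones Calr and Pdia3 of that list were higher in females, by 0.07 each. Of 10 interferon-response genes, 5 were lower in generation 23 than in 21, beside 32.6% of genes tested, with Isg15 at -0.22, Irf7 at -0.17 and Bst2 at -0.34. In generation 22 against 21 edgeR called 0 of the 10, with 0 at an unadjusted p under 0.05, beside 12083 of the 22968 genes tested. In 23 against 22 it called 0, with 2 at an unadjusted p under 0.05, beside 7106 of the genes tested.

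Across the 416 mice the constitutive subunits co-varied. Pearson's r of log2 CPM, with sex and generation removed, had a median of 0.39 over the 91 pairs of constitutive core genes, of which 91 were above 0. The median was 0.37 over the 36 pairs of base genes, 0.33 between core and base, 0.31 between core and lid, and 0.22 over the 28 pairs of lid genes. It was 0.15 between core genes and assembly chaperones, 0.14 between core genes and activators and 0.09 between core and immune core genes. The immune genes differed here: the median r with the core and base genes was 0.305 for Psmb10, 0.078 for Psmb8 and 0.013 for Psmb9. Over all 1225 pairs it was 0.14. These correlations are descriptions: all libraries share differences in depth and cell composition.

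The highest correlations joined the base genes Psmc3, an ATPase, Psmd2, and Psmd4, a ubiquitin receptor. The r was 0.714 for Psmc3 and Psmd2 (0.814, 0.594 and 0.518 within generations 21, 22 and 23), 0.704 for Psmc3 and Psmd4 (0.816, 0.623 and 0.50), 0.674 for Psmd2 and Psmd4 (0.804, 0.593 and 0.383) and 0.672 for the beta genes Psmb3 and Psmb4 (0.750, 0.651 and 0.511). All 4 were largest within generation 21. Over all libraries Spearman's rho was 0.638, 0.584, 0.586 and 0.597 in the same order, below r for each pair. The lowest were those of Psme4 with Psmd3, at -0.389 (-0.556, -0.151 and -0.063 within the 3 generations), and with Psmb6, at -0.329 (-0.444, -0.268 and -0.139). The rho of Psme4 was -0.230 with Psmd3 and -0.276 with Psmb6. The genes outside the family most like the mean of the constitutive core and base genes over 416 libraries were Vdac3 with r = 0.791, Atp5h with 0.770, Atp6v1e1 with 0.760, Mdh1 with 0.760 and Atp5c1 with 0.752.

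**Figure D4:**
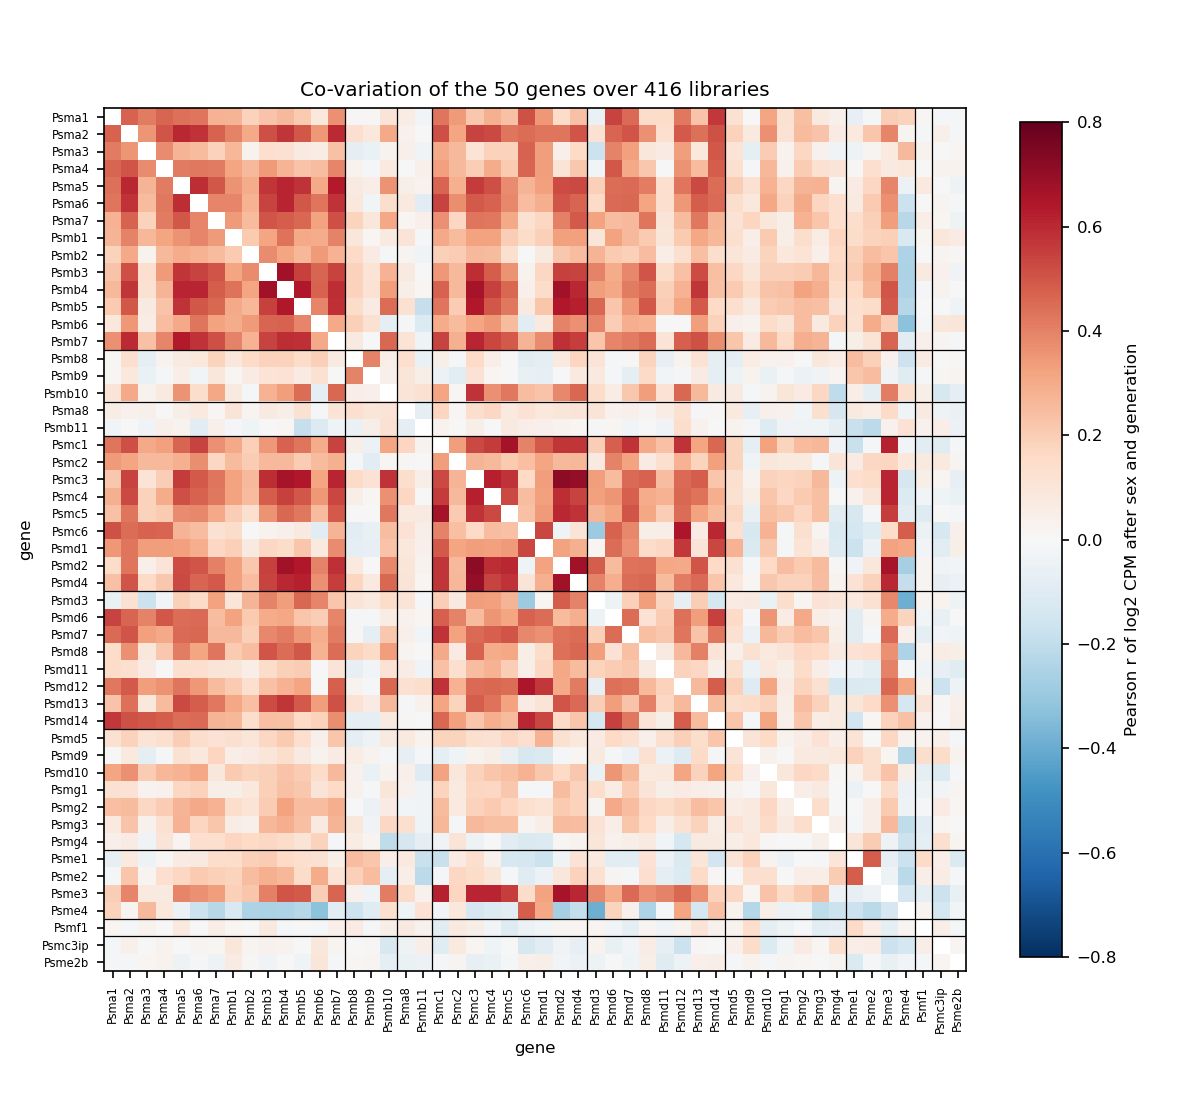
Pearson's r of log2 CPM over 416 libraries, with sex and generation removed, for every pair of the 50 genes, ordered by class with black lines between classes. The core, base and lid blocks are mostly red (median r 0.39 within the core and 0.37 within the base). The rows of Psmb8, Psmb9 and the restricted and inhibitor genes are mostly pale. The immune gene Psmb10 has a median r of 0.305 with the core and base genes.

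For 20 gene pairs the correlation was tested by permutation (100000 permutations, two-sided, adjusted by Benjamini-Hochberg over the 20), and 17 passed. The test asks only whether r differs from 0, and over 416 libraries an r of 0.124 passed. The share of other gene pairs that would pass is not given, so a pass does not set these pairs apart from other genes. Among the constitutive catalytic genes r was 0.582 for Psmb5 and Psmb7 (Spearman's rho 0.520), 0.388 for Psmb5 and Psmb6 (rho 0.372) and 0.302 for Psmb6 and Psmb7 (rho 0.319). For each of these 3 pairs the permutation p was 1e-05, the smallest that could be reached, and the adjusted p 1.4e-05. Psmb5 also followed Nfe2l1, the transcription factor known to induce proteasome genes, with r = 0.545 (rho 0.457, permutation p = 1e-05), at 0.696, 0.270 and 0.451 within generations 21, 22 and 23. Leaving out the 2 libraries farthest from the median on the x axis gave 0.505. Many genes outside the family had a larger r with Psmb5, among them Gapdh with 0.709 and Ap2s1 with 0.664. Nfe2l1 was paired with no other member among the 20 pairs.

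The immune subunits did not move as 1 group. Psmb8 and Psmb9, neighbours on chromosome 17, correlated with r = 0.399 (rho 0.385, permutation p = 1e-05, adjusted p = 1.4e-05), and r was 0.406, 0.336 and 0.439 within generations 21, 22 and 23. Psmb10, on chromosome 8, did not pass the test with either: r was 0.054 with Psmb8 (rho 0.054, permutation p = 0.27, adjusted p = 0.29) and 0.039 with Psmb9 (rho 0.021, permutation p = 0.43, adjusted p = 0.43). Each immune gene was more loosely tied to the subunit it replaces, with r = 0.147 for Psmb8 and Psmb5 (permutation p = 0.0025) and 0.124 for Psmb9 and Psmb6 (permutation p = 0.011), except Psmb10 and Psmb7 with r = 0.459 (rho 0.323, permutation p = 1e-05). With marker scores removed as well, Psmb9 and Psmb6 no longer passed (r = 0.08, adjusted p = 0.14) and Psmb8 and Psmb10 did (r = 0.11, adjusted p = 0.033).

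Psmb8 and Psmb9 followed the antigen-processing genes. The correlation of Psmb8 with Tap1 was 0.427 (rho 0.357), that of Psmb9 with Tap1 0.383 (rho 0.347), that of Psmb9 with B2m, the light chain of MHC class I, 0.372 (rho 0.324), and that of Psmb8 with the transcription factor Irf1 0.336 (rho 0.294), each with a permutation p of 1e-05. Tap1 overlaps Psmb9, and shared reads may enter their correlation. The genes outside the family most like Psmb8 over 416 libraries were H2-K1 with r = 0.467, B2m with 0.431, Tap1, the GTPase Irgm2 with 0.420 and the GTPase Gbp2 with 0.418. Of these, Tap1 and H2-K1 lie 0.0005 and 0.197 Mb from Psmb8 on chromosome 17, and the others lie on other chromosomes. Of the list of 12 antigen-processing genes, at least Tap1, Tap2 and H2-K1 lie on chromosome 17. The positions of Tapbp and H2-D1, also in the list, are not given here. Whether nearness on chromosome 17 enters the correlations was not tested. Against the mean log2 CPM of the 12 antigen-processing genes, r was 0.564 for Psmb8 (rho 0.529), 0.471 for Psmb9 (rho 0.422) and 0.250 for Psmb10 (rho 0.268), values chosen after the data were seen and given with no test. Psmb8 was tied more weakly to microglial genes, with r = 0.181 for Cx3cr1 (rho 0.165, permutation p = 0.00029), which was 0.03 with marker scores removed (adjusted p = 0.50), and r = 0.247 for the mean of 10 microglial markers.

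Psmb10 followed the markers of other brain regions instead. Its r was 0.740 with the mean of the 10 cortical excitatory markers (rho 0.744, and 0.629, 0.774 and 0.825 within generations 21, 22 and 23), 0.560 with the thalamic markers (rho 0.565) and -0.604 with the spiny neuron markers (rho -0.621). The gene with the largest r to Psmb10 was Syt13, at 0.863 (rho 0.804). These are descriptions with no test, and the relation to cortical markers is not a straight line: it is steeper among libraries rich in those markers.

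**Figure D5:**
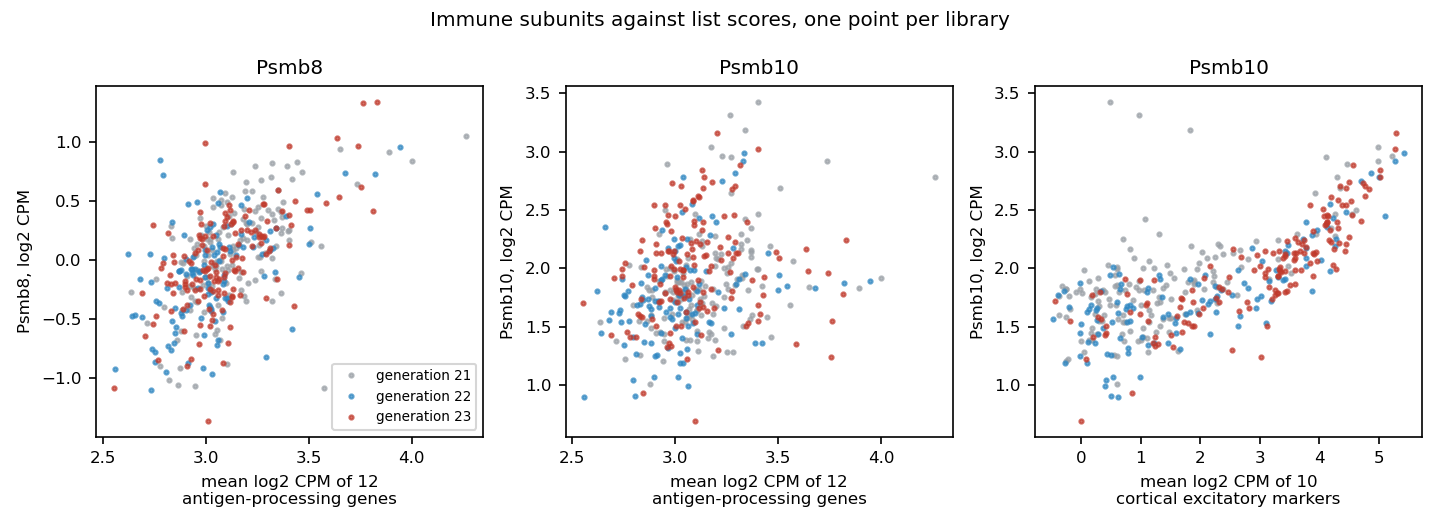
Log2 CPM of Psmb8 (left) and Psmb10 (middle) against the mean log2 CPM of 12 antigen-processing genes, and of Psmb10 against that of 10 cortical excitatory markers (right), with 1 point per library coloured by generation. Psmb8 climbs with the antigen-processing score (r = 0.564), and Psmb10 with the cortical score (r = 0.740).

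The 11S cap genes Psme1 and Psme2 correlated with r = 0.482 (rho 0.442, permutation p = 1e-05, adjusted p = 1.4e-05), while Psme1 and Psme3 did not pass the test (r = -0.063, rho -0.095, permutation p = 0.2, adjusted p = 0.22), with -0.276 within generation 23. Psme1 and Psme2 both lie on chromosome 14, and whether this enters their correlation was not tested. Psme1 correlated with Psmb8 at 0.248 (permutation p = 1e-05) and Psme2 with Psmb9 at 0.249 (permutation p = 1e-05). Psme1 and Psme2 also moved with choroid plexus markers, at r = 0.426 (rho 0.267) and 0.366 (rho 0.198), given with no test. The base ATPase Psmc3 and the lid gene Psmd11 correlated at 0.248 (rho 0.281, permutation p = 1e-05).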

How the data were processed

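Striatal RNA was measured in 416 libraries, prepared after ribosomal RNA depletion with a stranded kit and sequenced as paired reads, per the labels' protocols. The authors deposited 1 table of estimated counts per gene, of which 23.8% of values were not whole; they were rounded, which moved 0.005% of the total. The aligner, counter, genome build and annotation are not given in the sources used here. Gene IDs were named from GENCODE M21 (98.9% of IDs matched). Groups came from the labelled sex and generation. In R 4.3.3, edgeR 4.0.16 filtered genes (filterByExpr, minimum count 10, 6 groups), scaled by TMM and fitted a robust quasi-likelihood model with sex and generation over all libraries, with Benjamini-Hochberg adjustment over 22968 genes and a threshold of 0.05. Log2 CPM used a prior count of 2. Alternatives were limma 3.58.1 (voom), DESeq2 1.42.0, other scalings and filters, covariates, left-out libraries and single sexes or generations. The fit was tested on simulated data, after a first fit of the real counts had been made. The p-values measure the spread between animals, 1 library each. The members, classes and lists were chosen with earlier results of these data known.

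Genes given values one by one were the immune and catalytic subunits, the tissue-restricted subunits, the activators and the inhibitor. To these were added every member called between the sexes, up to 6 per direction and pair of generations by smallest p, the 8 most and 4 least variable members, the 3 highest and 3 lowest per kb, the 4 highest and 2 lowest correlated pairs, and the 3 smallest p per direction of each list. Some genes that this rule names are not reported here. The Psmf1 gap, the highest libraries and the score correlations were chosen after the values were seen. Marker lists were of microglia, astrocytes, oligodendrocytes, endothelium, choroid plexus, ependyma, cortical excitatory neurons, thalamic neurons, spiny neurons and red blood cells. Marker scores are mean log2 CPM over a list.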

Additional observations from a re-analysis of the deposited data

How the results depend on the processing

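The counts of members called for generation 23 against 21 (29 to 38) and 22 against 21 (26 to 38) stayed within 1.5 times of 37 under every alternative run, as did the 40 called among any generations (30 to 41), and the interaction count was 0 in each. The sex count of 4 was 1 with no filter on low counts, 1 with marker scores as covariates, 9 without the weak libraries, and 0, 0 and 0 in generations 21, 22 and 23 alone, which hold fewer libraries. The count of 5 for generation 23 against 22 was 1 with marker scores, none of the 5 among them, 1 in libraries labelled female alone and 0 in those labelled male alone. With marker scores Psmb10 changed sign for generation 23 against 21, at -0.15 against 0.10, which had not passed the test, and came near 0 for 23 against 22, at -0.0066 against 0.22. Whether the scores remove cell composition alone was not tested. The median level of 11.7 CPM per kb became 20.3 with the longest transcript as length, a shorter length by construction. The median SD over members ran from 0.107 to 0.121, the median r of core pairs from 0.369 to 0.400, and 16 or 17 fixed pairs passed. No paired analysis was possible because the replicate numbers only name libraries in accession order. Counting depth limits Psma8, Psme2b, Psmb9 and Psmb8.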

Other observations

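Several members co-varied most with genes of their own chromosome, a count made after the data were seen and given with no test. Of the 20 genes with the largest absolute r to each member, those on the member's chromosome numbered 20 for Psme2b, 19 for Psmd5, 17 for Psmc3ip, 17 for Psmf1, 16 for Psmb11 and 15 for Psmg1. Most were near by: in the same order, 18, 19, 16, 16, 16 and 15 lay within 10 Mb of the member. The other members had fewer than 10, among them Psmb2 with 7, Psmb8 with 5, Psmb9 with 3 and Psmb10 with 2. Of all genes tested, 8.09% lie on chromosome 2, which holds Psmd5 and Psmf1, and 7.43% on chromosome 11, which holds Psme2b and Psmc3ip. Chromosome 14, which holds Psmb11, has 3.29% of them, and chromosome 16, which holds Psmg1, has 2.84%. The leading partner of Psmd5, an assembly chaperone of the base, was Gm44443, 3.15 Mb away, with r = -0.623. That of Psmg1 was B3galt5, 0.245 Mb away, with r = -0.564. Psmb11 correlated with Pnp2, 3.66 Mb away, at 0.562, and Psme2b with 9930111J21Rik1, which overlaps it on the same strand, at 0.719. None of the 6 is a constitutive core, base or lid gene. When the 29 weak libraries were left out, 8 members had 10 or more.

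Psmc3ip also showed a gap, with 30.8% of libraries at 5.16 CPM or more and the others at 4.56 CPM or less. The gap was 0.298 SD wide, against 0.458 SD for Psmf1 and a median widest gap of 0.0909 SD over the members. Psme2b and Psma8 had wider gaps, of 0.798 and 0.592 SD, between the libraries at 0 and the rest. The share of genes tested with a gap as wide as that of Psmc3ip is not given here. The higher level of Psmc3ip held 47, 35 and 46 libraries of generations 21, 22 and 23, and 65 labelled female and 63 labelled male.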
